A study of Sus scrofa with 4 samples.

Results

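This account covers 9 pig genes whose human counterparts are linked to familial or gestational cholestasis, out of 16303 named protein-coding genes of the Sscrofa11.1 annotation. They are ABCB4, ABCB11, ATP8B1 and ABCC2, which encode pumps and flippases of the bile canaliculus, NR1H4, which encodes their regulator FXR, and MYO5B, USP53, VPS33B and VIPAS39, which encode apical sorting and junction proteins. Every deposited peak of histone H4 lysine 12 lactylation (H4K12la) with at least 1 base inside a member gene or within 50 kb of it was taken, whatever its strength. This gave 30 of the 28283 peaks of the high list and 5 of the 5735 peaks of the low list.

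The peaks come from livers of sows in late gestation. One group had normal bile acids and is labelled low, and the other had high bile acids. Each group has 1 library immunoprecipitated with an antibody to H4K12la and 1 input library without antibody, 4 samples in all. Tissue, cell type and sex are labelled liver, hepatocytes and female for all of them, and neither the age, strain or treatment of the sows nor the number of animals behind a library is given in the sources used here. With 1 library per group nothing below has a replicate check, and no p-value between the groups was computed. A bulk liver library also cannot tell a mark carried by fewer cells from less of the mark per cell.

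Bile is formed when hepatocytes pump bile salts, phospholipids and organic anions across the canalicular membrane, and osmotic water flow follows. Phosphatidylcholine protects the duct lining from the detergent action of bile salts, so loss of either the bile salt pump or the phospholipid floppase injures the liver. FXR senses bile acids in the hepatocyte nucleus and raises transcription of the export pumps, while myosin and vesicle-tethering proteins bring those pumps to the apical membrane. Partial loss of several of these genes is known in intrahepatic cholestasis of pregnancy, a disorder of late gestation. H4K12la is a histone acyl mark derived from lactate.

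Library-wide values set the scale for the members. The lowest pileup that the caller expected anywhere was 1.94 fragments for the low and 1.98 for the high library. The pileup of the low library had been scaled by a factor of 0.881 before it was compared with that expectation, and the high one was not scaled. Depth, solved from the lists, came to 7.37 (low) and 6.71 (high) immunoprecipitated fragments per kb of effective genome, where the effective genome size is an unknown setting of the caller. In the low list 97.4% of all peaks had a q of 1. As for the labelled cell type, 4 of 12 hepatocyte markers had a high-list peak inside or within 1 kb (APOB, TTR, HNF4A and CPS1) and 1 had a low-list peak (HNF4A), against 48.6% and 16.2% of all named coding genes. ALB, the albumin gene, had none in either list. The high-list counts were 2 of 7 for cholangiocyte, 2 of 8 for Kupffer and myeloid, 2 of 8 for stellate and fibroblast, and 5 of 8 for endothelial markers, and the low-list counts were 1, 2, 2 and 2. A peak of this mark is not a measure of expression, so these counts do not test which cells the libraries hold.

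The first question was how many of the cholestasis genes carried H4K12la peaks in each liver. In the high list 7 of the 9 members (77.8%) had a peak inside or within 50 kb, where 85.6% of all named coding genes did. In the low list 4 of the 9 (44.4%) had one, where 41.4% of all did. ABCB11, ATP8B1 and VPS33B had peaks in both lists, a class that held 38.0% of all genes. ABCB4, ABCC2, MYO5B and VIPAS39 had them in the high list only (47.6% of all genes), NR1H4 in the low list only (3.42%) and USP53 in neither (11.0%). The median number of peaks in a window was 3 in the high list for the members and 3 for all genes, and 0 for both in the low list. The middle 50% of all genes had 1 to 4 high-list peaks. These shares lie close to the background, and the members were not set apart by them.

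Peak density gave the same picture. The 9 windows together span 1.92 Mb and held 15.7 high-list peaks per Mb, against 14.4 per Mb in the joined windows of all named coding genes. For the low list the values were 2.61 and 2.89 per Mb. Inside the gene bodies of the members the density was 14.8 per Mb in the high list, against 14.7 in all coding gene bodies, and 2.95 against 2.90 in the low list. A peak inside the gene was present in 6 of 9 members (66.7%) for the high list (background 45.4%). For the low list it was present in 3 of 9 (33.3%, background 15.1%). Unlike the densities, both of these shares lay above the background, from 9 genes only. As to gene length, 7 of the 9 are longer than at least 72.3% of coding genes, from MYO5B at 97.4% down to USP53, and the part of length in these counts was not tested.

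**Figure D1:**
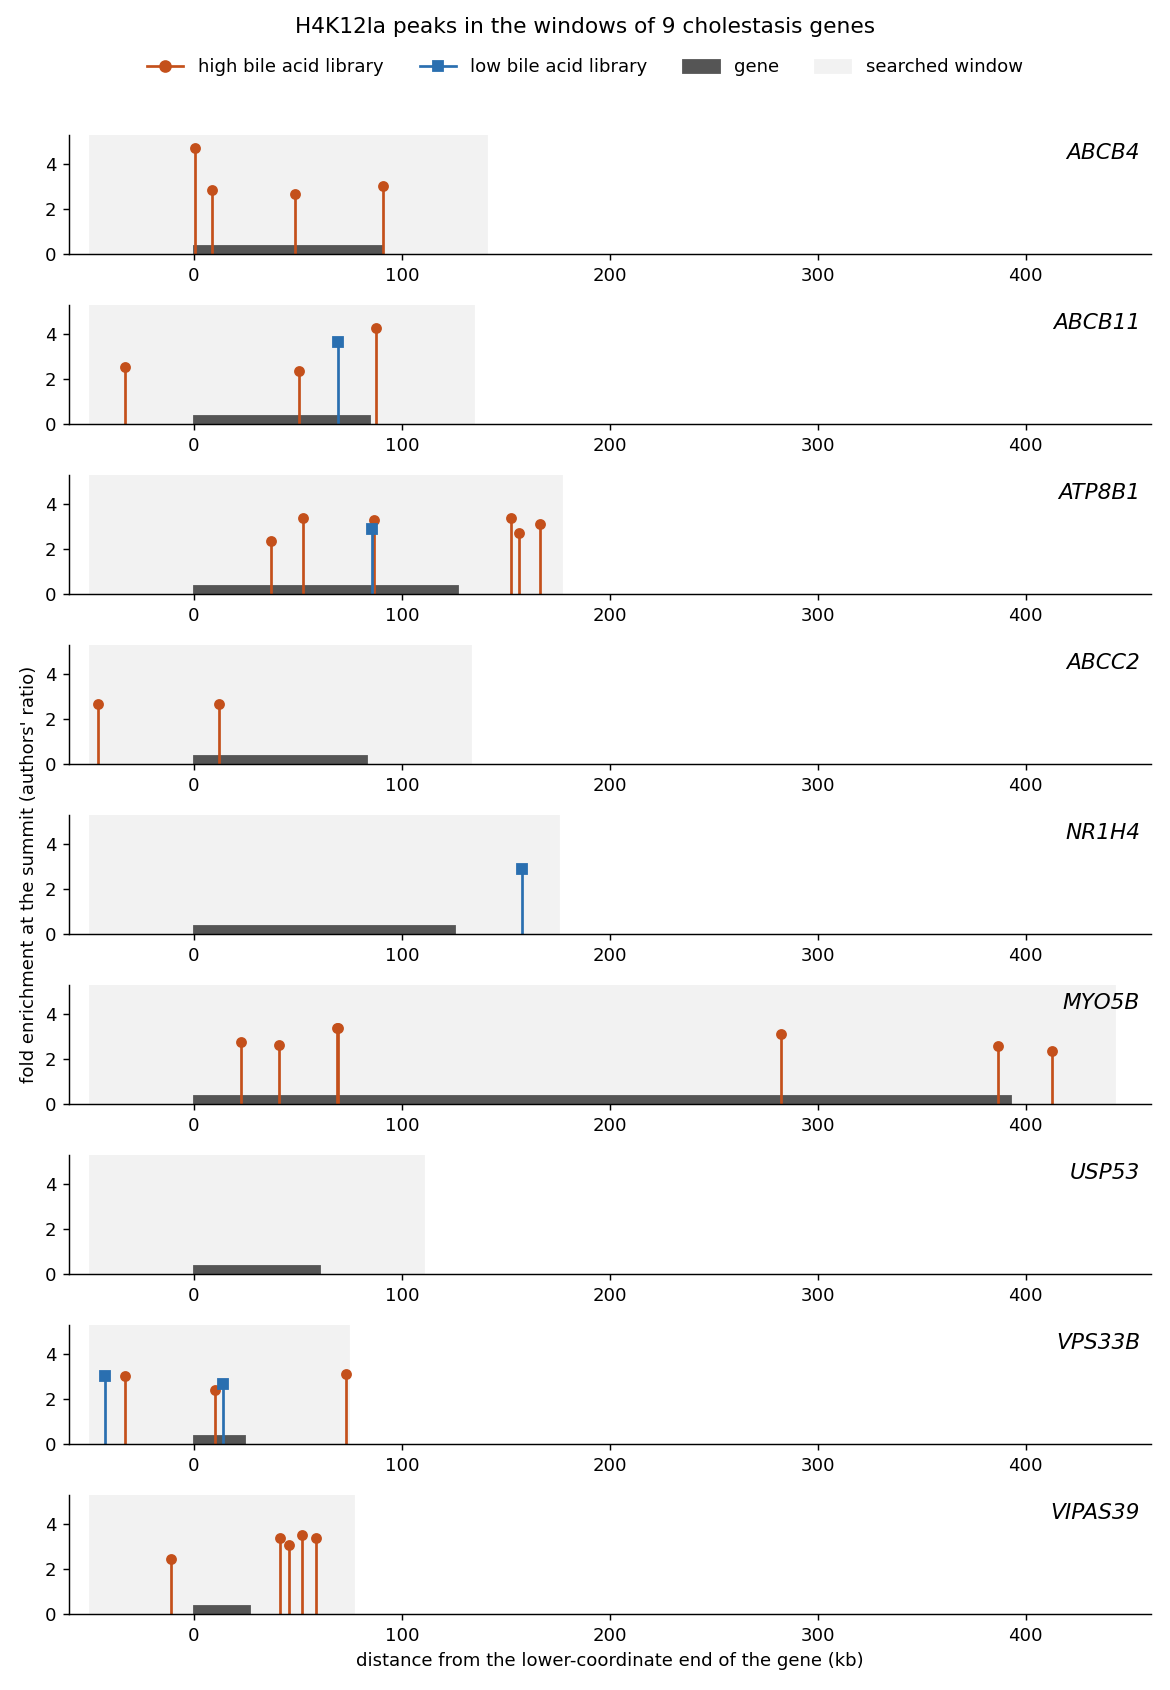
Peaks of both lists in the window of each member, with the distance of the summit from the lower-coordinate end of the gene in kb on the x axis and the authors' fold enrichment on the y axis. Dark bars are the genes, grey bands the searched windows, circles the high list and squares the low list; the highest circle, of fold 4.70, stands at one end of ABCB4, and the USP53 window is empty.

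The highest folds of the group belonged to ABCB4 and ABCB11, while the other canalicular transporters, ATP8B1 and ABCC2, had top high-list folds of 3.37 and 2.68. ABCB4 encodes the floppase that delivers phosphatidylcholine into bile (NCBI Gene 100144586; chromosome 9, 93171371 to 93262124). Its window held 4 high-list peaks and no low-list peak. The first spans 93171490 to 93171942, at the lower-coordinate end of the gene, with its summit 372 bp inside. Its 13 fragments (95% Poisson interval 6.92 to 22.2) stood over 1.98 expected and gave a fold of 4.70 (q 0.0106). In the high list, 0.290% of peaks reached that fold. The next peaks lay inside the gene, at 93179912 with a fold of 2.84 (q 0.33) and at 93219822 with a fold of 2.68 (q 0.50). The last, at 93262195, started 71 bp beyond the other gene end, in the gap before CROT, a peroxisomal carnitine acyltransferase gene 1037 bp away, with a fold of 3.01 (q 0.33). ABCB4 was thus the 1 member of 9 with a peak within 1 kb of a gene end in the high list (background 18.4%), and it had such a peak at both ends. No member had one in the low list (background 3.58%). ABCB4 and the neighbouring ABCB1 are similar in sequence, and how reads that match both were placed is not stated. The annotation table gives no strand and no exons, so which end holds the start site, and whether inner peaks lie in exons, introns or untranslated regions, is not told here.

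ABCB11, the bile salt export pump that secretes conjugated bile acids into the canaliculus (NCBI Gene 100518154; chromosome 15, 75402296 to 75487092), had 3 high-list peaks and 1 low-list peak. The strongest high-list peak spans 75489794 to 75490158, which is 2702 bp beyond the upper gene end and in no annotated gene. Its 12 fragments (interval 6.20 to 21.0) stood over 2.04 expected, a fold of 4.27 (q 0.0310). Inside the gene the high list had 1 peak at 75452777 with a fold of 2.34 (q 0.548), near the weakest folds of that list, since 92.1% of its peaks reached this value. The third, at 75368989 with a fold of 2.56, lies in SPC25, a kinetochore gene. The low list's peak, 75471321 to 75471753, lies inside ABCB11. Its 11 fragments (interval 5.49 to 19.7) gave a fold of 3.64 (q 1), and 8.47% of low-list peaks reached that fold. It lies 18041 bp from the nearest high-list peak, the one beyond the upper gene end, and 18250 bp from the high-list peak inside the gene. The peaks of the lists thus did not overlap here, which holds for most peaks. Over the whole lists 0.732% of high-list and 3.63% of low-list peaks overlapped the other list.

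ABCB4 and ABCB11 were the 2 members with a peak of q under 0.05 in the high list. The same members were the 2 with a fold of 4 or more. Over all coding genes, 7.89% had a high-list peak of q under 0.05 inside or within 50 kb and 9.83% one of fold 4 or more. In the low list no member met either threshold, nor did most genes, with 0.141% and 0.742% doing so.

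ATP8B1 encodes a flippase that moves aminophospholipids to the inner leaflet of the canalicular membrane (NCBI Gene 100153006; chromosome 1, 162936209 to 163063040). It had 6 high-list peaks, of which 3 lay inside the gene, and 1 low-list peak, also inside. The inner high-list peaks had folds of 2.37 at 162973078, 3.36 at 162988548 and 3.31 at 163022568. The low-list peak, 163021366 to 163021664, rested on 10 fragments (interval 4.80 to 18.4) and had a fold of 2.89 (q 1). It lies 904 bp from the third of the inner high-list peaks, the shortest distance between the lists in any member window, and does not overlap it. The 3 outer peaks lie beyond the upper end. One is in SLC51B, which encodes a subunit of the basolateral bile acid exporter, with a fold of 3.37 (q 0.168), and 2 are in RASL12, a small GTPase gene, with folds of 2.73 and 3.12. A cholestasis flippase and a bile acid exporter gene thus share this window in the pig genome, and a further long noncoding gene, LOC110261747, overlaps the upper end of ATP8B1 without holding a peak.

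ABCC2, the pump for conjugated bilirubin and other organic anions (NCBI Gene 397535; chromosome 14, 110955698 to 111038898), had 2 high-list peaks and no low-list peak. One lies inside the gene at 110967944 and the other 45800 bp below it in CUTC, a copper homeostasis gene. Both rested on 7 fragments (interval 2.81 to 14.4), the fewest behind any member peak, with a fold of 2.68 (q 0.50). The nearest low-list peak was 313.6 kb from the gene, and 14.6% of coding genes lay as far from one.

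NR1H4 (NCBI Gene 100153960; chromosome 5, 83607222 to 83732668) had no peak inside the gene in either list. Its only peak in the window was in the low list, at 83764903 to 83765201, 32235 bp beyond the upper end and inside SLC17A8, a vesicular glutamate transporter gene. That peak had a fold of 2.89 (q 1) from 10 fragments. The nearest high-list peak lay 136.3 kb away in ANO4, with a fold of 3.45, and 5.66% of coding genes were that far or farther from a high-list peak. The surrounding sequence was also poor in high-list calls. Within 500 kb on each side of the gene there were 3 high-list and 3 low-list peaks, 2.67 per Mb in each, although the high list is the longer one. Over all coding genes the median of this regional density was 16.8 high-list and 2.99 low-list peaks per Mb, and 4.65% of genes were at or below the value of NR1H4 in the high list.

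The sorting and junction genes followed. MYO5B encodes the motor that carries recycling vesicles with canalicular transporters along actin (NCBI Gene 100521829; chromosome 1, 99418242 to 99810934). It had 7 high-list peaks, 6 of them inside the gene, while the nearest low-list peak lay 252.6 kb away. Folds ran from 2.37 to 3.36. A pair at 99486929 and 99487412, with 188 bp between them, had the same fold of 3.36 (q 0.232) from 9 fragments each, and the other inner peaks were single and 17955 bp or more from the next one. For a window of this length, the mean density of coding-gene windows gives 7.12 high-list and 1.42 low-list peaks, close to the 7 and somewhat above the 0 that were counted.

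USP53, a protein of the ubiquitin-specific protease family found at tight junctions (NCBI Gene 100626376; chromosome 8, 104500204 to 104560711), had no peak of either list inside it or within 50 kb. The mean density would give 2.32 high-list and 0.464 low-list peaks. The nearest peaks of both lists lay close together in SEC24D, a vesicle coat gene that lies just beyond USP53. The high-list one starts 62.4 kb from USP53 with a fold of 2.29 and the low-list one 63.2 kb from it with a fold of 3.04, with 315 bp from the end of the first to the start of the second. The region of 500 kb on each side held 5.66 high-list peaks per Mb, and 10.2% of genes were at or below that.

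VPS33B and VIPAS39 encode partners in a complex that sorts apical proteins into recycling endosomes. VPS33B (NCBI Gene 110261556; chromosome 7, 55840612 to 55865045) is the shortest member and had 1 inner peak in each list. The high-list peak at 55850503 had a fold of 2.41 (q 0.548) from 7 fragments, and the low-list peak at 55854474 one of 2.67 (q 1) from 11 fragments over 3.0 expected. They lie 3480 bp apart. Its other high-list peaks lie in GDPGP1, a GDP-glucose phosphorylase gene, with a fold of 3.01, and in the long noncoding gene LOC110261561 with 3.12, and the other low-list peak lies in CIB1, a calcium-binding protein gene, with 3.02. With 2 low-list peaks, VPS33B had more than any other member.

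VIPAS39 (NCBI Gene 100626440; chromosome 7, 100482953 to 100510164) had 5 high-list peaks in its window, none of them inside the gene, and no low-list peak. One lies in NOXRED1, 10812 bp below the gene, with a fold of 2.47. The other 4 run along ISM2, which encodes isthmin 2, with folds of 3.36, 3.09, 3.52 and 3.36. The last of them lies 387 bp beyond ISM2. The window had 39.3 high-list peaks per Mb, the densest of the 9, and the region of 500 kb on each side had 29.2 per Mb, at or above the value of 82.1% of coding genes. VPS33B thus had an inner peak in each list and VIPAS39 in neither, while 3 of the 5 peaks in the VPS33B window also lay outside the gene.

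**Figure D2:**
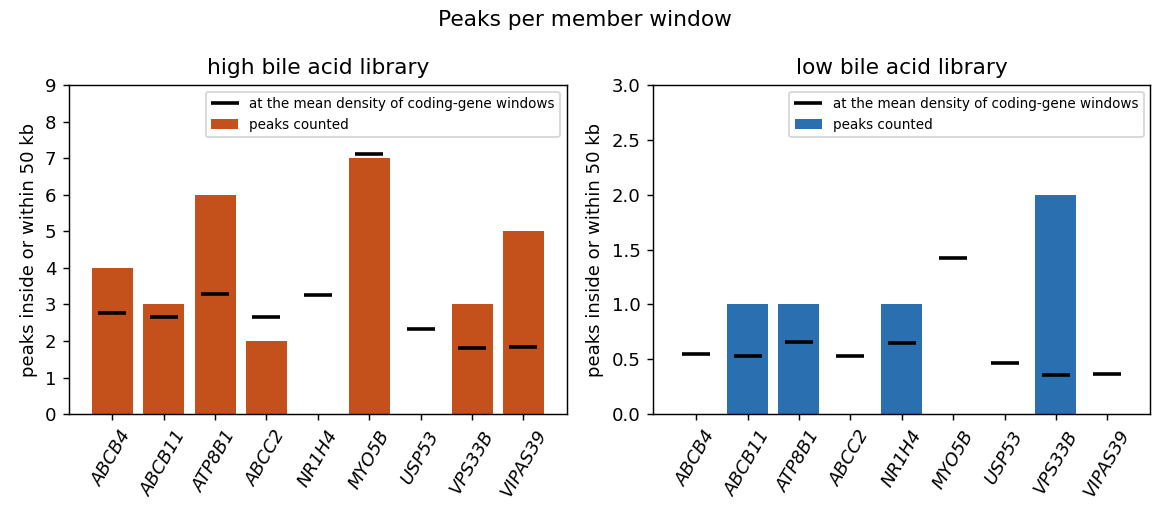
Number of peaks inside or within 50 kb of each member (bars) in the high list on the left and the low list on the right, with the number that the mean density of all coding-gene windows gives for a window of that length (black dashes). VIPAS39, with 5 against 1.84, and ATP8B1, with 6 against 3.28, stand farthest above their dashes in the high list, and NR1H4 and USP53 are at 0.

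**Figure D3:**
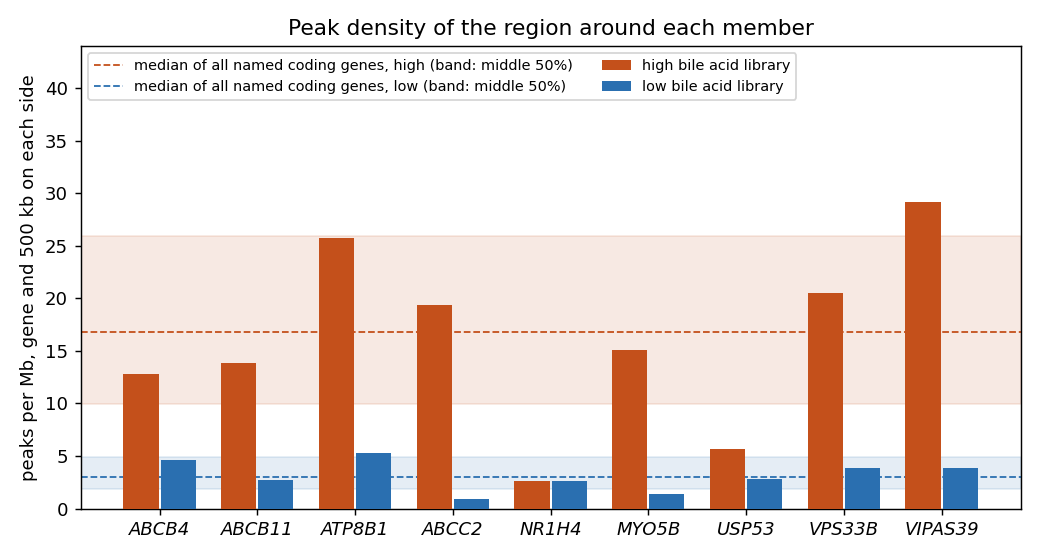
Peaks per Mb in the gene and 500 kb on each side, by member and library (bars), with the median (dashed) and the middle 50% (band) over all named coding genes for each list. The high-list bar of NR1H4 is as low as its low-list bar, at 2.67 per Mb, and that of USP53 is 5.66, while VIPAS39 reaches 29.2.

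The next comparison asked whether a peak called in 1 library stands for a difference between the livers. No high-list peak of the member windows overlapped a low-list peak by even 1 base, 0 of 30. Over the whole lists 0.732% of high-list and 3.63% of low-list peaks overlapped the other list. The 30 high-list peaks rested on 7 to 13 fragments at the summit, with a median of 9, and the 5 low-list peaks on 10 or 11. For each peak the fewest fragments were found that would have passed the caller's cutoff in the other library over the same expected pileup. That number was 6 to 8. It lay inside the 95% interval of the unadjusted fragment count for all 30 high-list and all 5 low-list peaks. For the first ABCB4 peak the interval began at 6.92, where a call in the low library needed 7. Counts were not adjusted for the depths of 6.71 (high) and 7.37 (low) fragments per kb. At so narrow a margin, the ABCB4 result depends on leaving depth out. With 1 library per group, a missing call in the other list does not show that H4K12la differed at any of the 9 genes. The counts of the other library at these places are not in the lists.

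**Figure D4:**
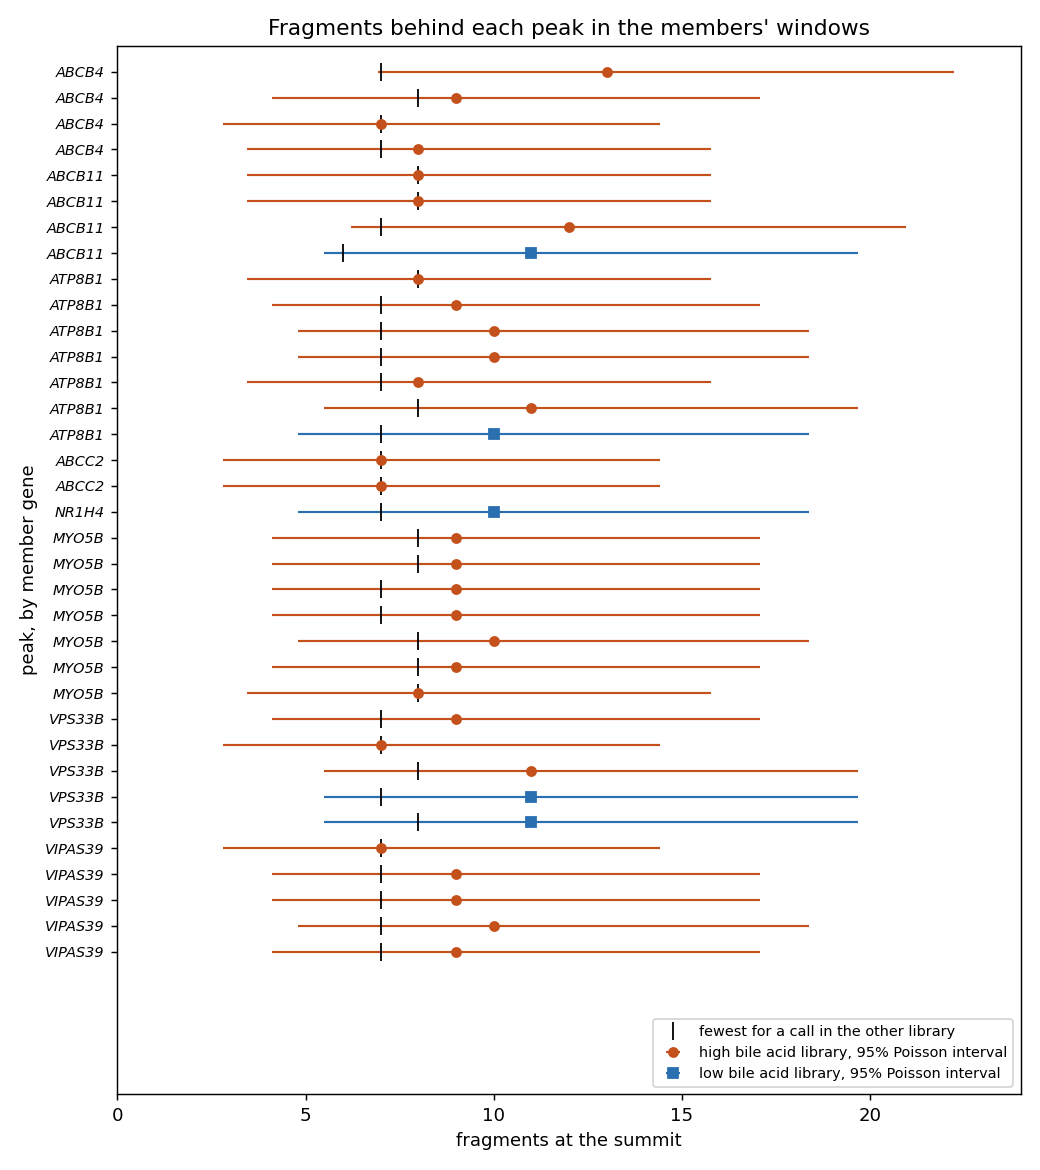
Fragments at the summit of each of the 35 peaks in the member windows (points) with exact 95% Poisson intervals (lines), and the fewest fragments that a call in the other library would have needed (black ticks). Every tick lies within its line, and the ABCB4 peak of 13 fragments comes nearest to leaving it. Counts are not adjusted for the depth of the libraries, and the ABCB4 result depends on that.

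Many folds in these windows were steps of counting. A fold of 3.36 occurred at 5 high-list peaks, in the windows of ATP8B1, MYO5B and VIPAS39, because each had 9 fragments over the library-wide expectation of 1.98, and 1491 peaks of the high list share that value. The 2.68 of ABCC2 (at both of its peaks) and of 1 ABCB4 peak is the step of 7 fragments, shared by 1141 peaks. Ordering members by such equal folds has no content. Among the 30 high-list peaks, 10 lay over the library-wide expectation and 20 over a higher local one of up to 2.85. Peak width ran from 295 to 620 bp with a median of 359 bp, and 9 of the 30 had the smallest width of the list, 295 bp. The median fold of the member peaks was 3.01, against 2.90 over the high list, and 2.89 against 2.98 for the low list.

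Related genes were counted by the same rule in 4 lists. Of 26 other genes linked to inherited or gestational cholestasis, 25 had a high-list peak inside or within 50 kb and 12 a low-list peak (46.2%, against 41.4% of all named coding genes). KIF12, a kinesin gene, led with a fold of 4.36 (q 0.0310) outside the gene. JAG1, a Notch ligand gene, followed with 3.94 from a peak 0.551 kb outside. AMACR, a peroxisomal racemase of bile acid synthesis, had 3.69 inside the gene. NOTCH2, the receptor gene, also had 3.69, from a peak 31.2 kb outside. The 1 gene without a high-list peak was SLC10A1, the sinusoidal bile acid uptake carrier, which had a low-list peak inside it and is named here after its values were seen. Inside the gene itself, 17 of the 26 had a high-list peak (65.4%, background 45.4%) and 4 a low-list peak (15.4%, background 15.1%).

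Of 18 partners of the sorting members, all 18 had a high-list peak within the window and 5 a low-list peak (27.8%, below the background of 41.4%). VPS41, a tethering-complex subunit gene, had the highest fold, 4.42 (q 0.00553), from a peak 31.3 kb outside the gene, and VPS16 and RAB10 had 3.77 and 3.64, also outside. Inside the gene 7 of the 18 had a high-list peak (38.9%, below the background of 45.4%) and 4 a low-list peak (22.2%, background 15.1%). RAB10 was one of the latter.

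Of 18 FXR partners and targets, 17 had a high-list peak and 11 a low-list peak within the window (61.1% for the latter, background 41.4%). RXRA, which encodes the dimer partner of FXR, had 27 high-list peaks there and the highest fold of the 4 lists, 5.03 (q 0.00241), from 14 fragments at chromosome 1, 273700465 to 273700947, inside the gene. FGFR4, the hepatocyte receptor for the intestinal hormone FGF19, had 4.27 from a peak 10.9 kb outside the gene, and CYP7A1, the first enzyme of bile acid synthesis, had 4.03 inside. The RXRA window also held 6 low-list peaks, and that of NR1H4 held 0 high-list and 1 low-list peak. Over all genes the median window held 3 high-list and 0 low-list peaks. The density of the region around RXRA is not given here, and its part in these counts was not tested. The 1 gene of this list without a high-list peak was SIRT1, a deacetylase gene, also named after its values were seen, and it had a low-list peak in its window. Inside the gene 9 of the 18 had a high-list peak (50%, background 45.4%) and 4 a low-list peak (22.2%, background 15.1%).

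Of 12 other export pumps and flippases, all 12 had a high-list peak within the window and 8 a low-list peak (66.7%, background 41.4%). These 8 are not independent, since some are neighbours that share peaks. The top low-list peak of ABCC1 is also that of ABCC6, 39.1 kb outside ABCC6. The only low-list peak of ABCG5 also lies in the window of ABCG8. ABCB1, a multidrug pump gene beside ABCB4, led with 4.70, but this is the ABCB4 peak, 25021 bp outside ABCB1. ATP7B, the copper pump of bile, had a fold of 4.51 (q 0.0106) inside the gene, and ATP8B3 had 4.21 (q 0.0306) from a peak 30.3 kb outside. Inside the gene 6 of the 12 had a high-list peak (50%, background 45.4%) and 4 a low-list peak (33.3%, background 15.1%). In the high list the window shares were 96.2% of the cholestasis list, 94.4% of the FXR list and 100% of the other 2 lists, beside the background of 85.6%, and 77.8% of the 9 members. The low-list window shares lay on both sides of their background, from 27.8% to 66.7% against 41.4%. The lists are short, share SLC51A, SLC51B, ABCG5 and ABCG8 among them, and were not tested against each other. They also share peaks with the 9 members, since the high-list peaks of SLC51B include the outer peaks of the ATP8B1 window.

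**Figure D5:**
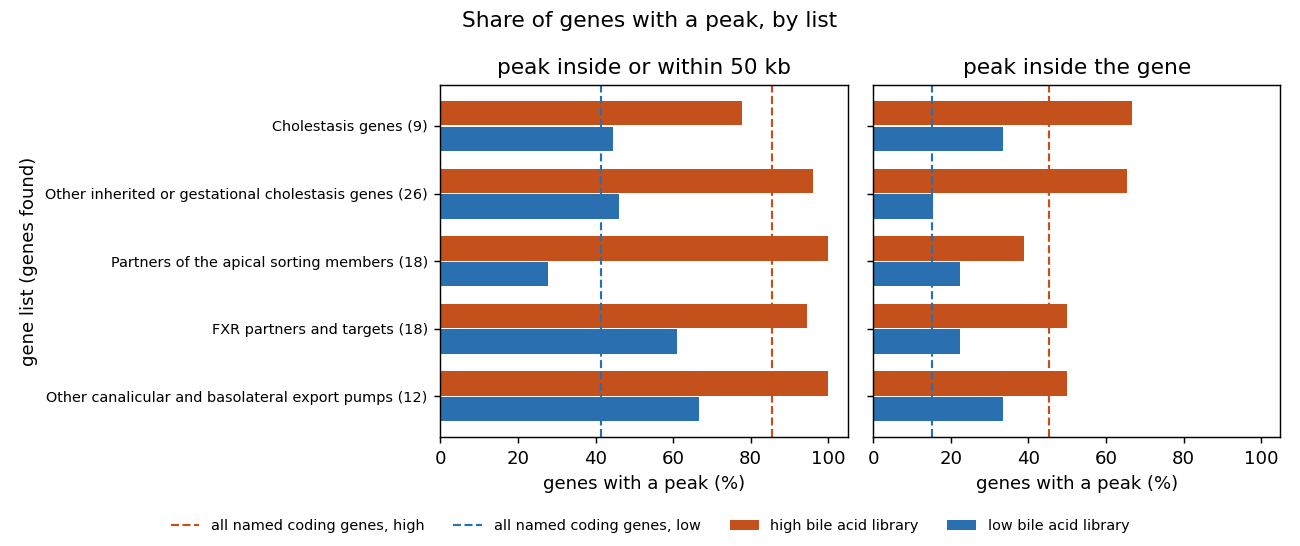
Share of genes with a peak in the high list (orange) and the low list (blue) for the 9 cholestasis genes and the 4 related lists, with a peak inside or within 50 kb on the left and inside the gene on the right. Dashed lines mark all 16303 named coding genes; on the left the 9 genes lie below the high-list line, at 77.8% against 85.6%, and the related lists above it.

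Some values at the edge of the window show what the limit of 50 kb decides. The farthest peak counted lay 48562 bp from VPS33B in LOC110261561. The first ones left out lay 50.1 kb from ATP8B1 in KBTBD13, with a fold of 3.31, and 50.2 kb from VIPAS39 in TMED8, with a fold of 3.19.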

How the data were processed

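Each of the 2 immunoprecipitated libraries has 1 deposited list of narrow peaks, called per library without pooling. Reads were handled with MACS2 2.1.0, Bowtie 1.1.2, Trimmomatic 0.33 and bcl2fastq 2.17, per the submitters' processing notes, which name the builds hg38 and Sscrofa11.1. The last peaks of the 20 chromosomes lay within 1.76 Mb of the last annotated Sscrofa11.1 gene, with a median gap of 24.2 kb, so pig coordinates were used. The widest gap was on chromosome Y, where the last peak ended at 43258017. The samples are labelled female, and why peaks were called on Y was not examined. The authors deposited a fold enrichment, a −log10 p-value and a −log10 q-value for each peak, and a display score that was not used here. The fold is the ratio of the summit pileup to its local background, with 1 added to both. Fragment counts of the low library are given before its scaling by 0.881, and expected pileups are on the scale after it. No source used here states the cutoff for calling; since p-values reached 0.00989 in either list, 0.01 was assumed.

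Fragments and expected pileup were solved from fold and p-value together, with whole numbers within 0.002 for 99.98% (low) and 99.99% (high) of the peaks; the step was tested on simulated data. Intervals are exact Poisson and cover counting error only, since reads without molecular identifiers are not independent molecules. Gene positions came from RefSeq, and the background leaves out coding genes known by LOC names alone. All 9 members are named, and of each related list the 3 genes of highest high-list fold, ties included. The members and lists were chosen with earlier results of these data known. CYP7B1, BAAT, SLC47A1 and KRT7 were not found under these symbols. Motif counts in promoters were planned but not run, as no sequence was used. Python 3.11.15, pandas 2.3.3 and scipy 1.17.1 were used.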

Additional observations from a re-analysis of the deposited data

How the results depend on the processing

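No paired analysis was possible because neither group holds more than 1 immunoprecipitated library, and for the same reason no library could be left out. With only peaks of q under 0.05, the high list had 2 members with a peak within 50 kb, 1 with a peak inside, 2 peaks and 1.04 peaks per Mb, and the low list 0 of each; with only folds of 4 or more the values were the same, 2, 1, 2 and 1.04 (high) and 0 (low). With the high list reduced by p to the length of the low list, 5 members had a peak within 50 kb and 3 inside, from 8 peaks or 4.18 per Mb. A window of 10 kb gave 17 high-list and 3 low-list peaks, and one of 100 kb gave 47 and 8. A gene-end window of 3 kb gave 2 members in the high list. Apart from the shares within 50 kb for q and fold given above, no share over all coding genes was computed under these settings. The other counts therefore have no background here. These falls and gains come with fewer peaks or other windows by construction. The other 20 counts and densities stayed within 1.5 times their value. Among them, the 0 shared peaks under both other definitions of sharing were fixed in advance. Reciprocal overlap is stricter than 1 base, and the smallest gap of 904 bp exceeds the 500 bp allowed between summits. The 40 highest folds that remained stayed within their counting intervals, but the peak filters kept the same top peak or left none. The intervals are wide, since 2.68 and 4.03 (100 kb window) for ABCC2 counted as unchanged. In 22 cases a member had no peak left.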

Other observations

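Between 50 and 100 kb from the members lay 17 more high-list peaks, around 6 of the genes, with folds of 2.08 to 4.03, and 3 more low-list peaks, around 3 of them, with folds of 2.94 to 3.34. None had a q under 0.05. The strongest lay in CUTC, 60.1 kb below ABCC2, with a fold of 4.03 (q 0.0735), above both peaks counted for ABCC2. A high-list peak of fold 3.55 lay in GSTZ1, a glutathione transferase gene, 88.7 kb from VIPAS39, and one of fold 3.09 in LRP2, which encodes the endocytic receptor megalin, 92.4 kb from ABCB11. Low-list peaks in no annotated gene lay 55.7 kb above ABCB4 and 56.7 kb above ABCB11, with folds of 2.94 and 3.34. These genes were named after their values were seen.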
